A study of Mus musculus with 15 samples.

Results

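The genes described here are the mouse zinc finger genes whose symbol on the array platform is Zfp followed by a number. They were chosen by name and by level: the brightest probe set on average, taken across the 15 arrays, stood for each gene, and the gene was kept if that mean log2 intensity was 6 or more. This rule kept 211 genes out of 305 Zfp-named genes and out of 18193 genes with a probe set of their own. Expression was measured with Affymetrix mouse genome arrays of the 3' type in the auditory nerve of adult CBA/CaJ mice aged 5 to 12 weeks, of both sexes. The controls heard no noise, and the other animals were exposed for 2 h to noise of 106 dB SPL in the octave from 8 to 16 kHz before tissue was taken immediately (day 0) or 1, 7 or 14 days later. Each of the 5 groups held 3 animals, and each array held the pooled nerve tissue of both ears of 1 animal, dissected as the modiolus of the cochlea. The 3 controls were female and the 3 animals at 1 day were male, while the immediate, 7-day and 14-day groups each held 2 females and 1 male.

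Most Zfp-named genes encode proteins with tandem zinc fingers of the C2H2 type, which bind DNA base by base. Many of these proteins also carry a KRAB domain, which recruits the corepressor Trim28 and, through it, histone methylation and heterochromatin proteins that silence transposable elements and nearby genes. Such genes are numerous in the mouse, often lie side by side on a chromosome, and are usually transcribed at low levels. A few Zfp-named genes have other roles, among them mRNA decay (Zfp36), myelination of the central nervous system (Zfp24) and signalling of the p75 neurotrophin receptor (Zfp110).

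Values throughout are log2 intensities of a probe set, differences are log2 differences of group means with the standard error of the fit, and group means are given with their SD over n = 3 arrays. Median intensities of the 15 arrays lay between 5.87 and 5.92. Of the Schwann cell markers 5 of 8 had a probe set, with means from 9.97 to 13.93, and of the spiral ganglion neuron markers 9 of 10, from 5.84 to 13.56, so the labelled tissue was present on the arrays, and the hair cell markers lay between 3.81 and 7.41. The 12 macrophage markers, averaged per array, lay between 6.86 and 7.02 in controls and between 7.91 and 8.04 at 1 day, and the 5 bone markers between 7.99 and 9.44 in controls and between 7.37 and 7.69 at 1 day. The neutrophil markers spread from 5.89 to 9.05 among the controls alone. Against control, 9 of the 12 macrophage markers rose at 1 day, and 2 of 5 bone, 2 of 3 cartilage, 1 of 9 neuron, 1 of 5 Schwann cell and 1 of 2 muscle markers tested fell. The fit with sex as a term called 4 macrophage markers higher and 1 cartilage and 1 muscle marker lower, and 0 of the bone, neuron and Schwann cell markers. Actin control probe sets at the 3' end exceeded those at the 5' end, a measure of RNA integrity, by 0.54 ± 0.04 (SD, n = 3) in controls and 0.48 ± 0.03 (SD, n = 3) at 1 day. The part that these markers, RNA quality and sex have in the differences below was not tested beyond the fit with sex as a term. In bulk tissue, fewer cells of a type and less RNA per cell cannot be told apart.

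The 211 genes lay at a median level of 7.27, from 6.0 to 10.73, with 78 between 6 and 7, 80 between 7 and 8 and 53 at 8 or more. The level chose the genes and is given as a description. Only 4 of them (1.9%) reached 10, while of the 10750 other genes tested at a level of 6 or more 12.9% did, around a median of 8.16. The highest means belonged to Zfp445, a regulator of genomic imprints, at 10.73, Zfp622, which acts in ribosome assembly, at 10.41, Zfp106, an RNA-binding protein needed by motor neurons, at 10.09, and Zfp871 at 10.07. Below these came Zfp91 (9.98), a ubiquitin ligase of NF-kappaB signalling, Zfp521 (9.97), Zfp24 (9.87), Zfp612 (9.66), Zfp207 (9.40), a kinetochore and spindle protein, and Zfp462 (9.38). Intensities of different probe sets depend on the probes as well as on the transcripts, so this order is not one of transcript numbers. The next brightest probe set of Zfp622 lay at 7.60. None of these 10 genes was called against control at any time, and at 1 day their differences ran from -0.25 (Zfp521) to 0.20 (Zfp207, -0.04 as the mean over its probe sets).

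Just inside the level of 6 stood Zfp954 (6.0), Zfp524 (6.007) and Zfp775 (6.043), and just outside Zfp593 (5.984), Zfp120 (5.937) and Zfp940 (5.905). The level of 6 is close to background on these arrays. The probe set of Xist, a transcript that males lack, read 5.13 to 6.48 in the 6 males, and 42 of the 211 genes had a mean below that highest value. Of the 211 genes 210 were protein coding in the RefSeq gene table and Zfp783 was listed as a long non-coding RNA. A single probe set stood for 87 genes, and 124 had several, up to 7. Replicate arrays scattered around their group mean with a median pooled SD of 0.13 for these genes and 0.11 for the other genes at level 6 or more. The widest spread over the 15 arrays was that of Zfp36, 1.93, followed by Zfp563 (1.65), Zfp420 (1.50), Zfp950 (1.37) and Zfp719 (1.36).

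Immediately after noise, the comparison asked which of these transcripts differed from control at the end of exposure. Zfp740 and Zfp90 fell and none of the 211 genes rose. Of 13644 genes tested, 0.352% fell and 0.579% rose in the same fit, and 0.948% of the 211 genes fell. Zfp740 read 9.15, 9.14 and 9.14 in the 3 controls and 8.83, 8.83 and 8.66 immediately after noise, and it lay between 8.95 and 9.23 on the 9 arrays of the later times. The 3 immediate arrays were below all the others. The difference from control was -0.37 ± 0.06 (limma, adjusted p = 0.0143), and with sex as a term it was still called (adjusted p = 0.0309). Zfp90 read 7.13, 7.12 and 7.32 in controls and 6.88, 6.64 and 6.85 immediately after noise, again with no overlap. Its difference was -0.40 ± 0.09 (limma, adjusted p = 0.0373; 0.0401 with sex as a term). Both calls were fragile: without control replicate 2 or immediate replicate 3 Zfp740 no longer passed the threshold (adjusted p = 0.0581 and 0.0894). The call of Zfp90 ended without any single control or immediate array, without 1-day replicate 2 or 3 and without 14-day replicate 1 or 2, with adjusted p from 0.0529 to 0.166 and differences from -0.45 to -0.33. Among female arrays alone neither was called (-0.31 and -0.43, adjusted p = 0.143 and 0.249).

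The next members by p-value were not called. Zfp777 read 7.55, 7.60 and 7.59 in controls and 7.39, 7.11 and 7.15 immediately after noise, a difference of -0.36 ± 0.09 (limma, adjusted p = 0.0826), which passed the threshold without 7-day replicate 1 (0.0403) and with array weights (0.0129). Zfp318, a nuclear protein known for its part in IgD expression of B cells, differed by -0.24 ± 0.07 (adjusted p = 0.0988; 0.0178 with array weights), Zfp362 by -0.20, Zfp783 by -0.29 (0.0461 with array weights) and Zfp28 by -0.29. Zfp462 was the one gene of these 8 on the other side, at 9.26 ± 0.14 (SD, n = 3) in controls and 9.58 ± 0.13 immediately after noise, a difference of 0.32 ± 0.10 (limma, adjusted p = 0.151). For each of these 6 genes the immediate arrays did not overlap with the controls, but they were picked by small p-values in this comparison. How often the groups stood apart in this way over all genes tested was not counted, so the lack of overlap does not set these genes apart. The median difference of the 211 genes immediately after noise was -0.01, and that of all genes tested -0.02.

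At 1 day after noise, 10 of the 211 genes fell and 1 rose. The 10 that fell were Zfp563, Zfp950, Zfp40, Zfp760, Zfp839, Zfp329, Zfp809, Zfp30, Zfp638 and Zfp101, by 0.33 to 0.86 on the log2 scale, and the one that rose was Zfp110. Among all genes tested 1.66% fell and 1.52% rose, against 4.74% and 0.474% of the 211. Without adjustment 53 genes (25.1%) lay lower and 4 (1.9%) higher at p under 0.05, where 10.2% and 7.7% of all genes did. A fit with sex as a term called 2 of the 211 as fallen and 0 as risen, beside 0.271% and 0.279% of all genes, and all 11 kept their direction.

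**Figure D1:**
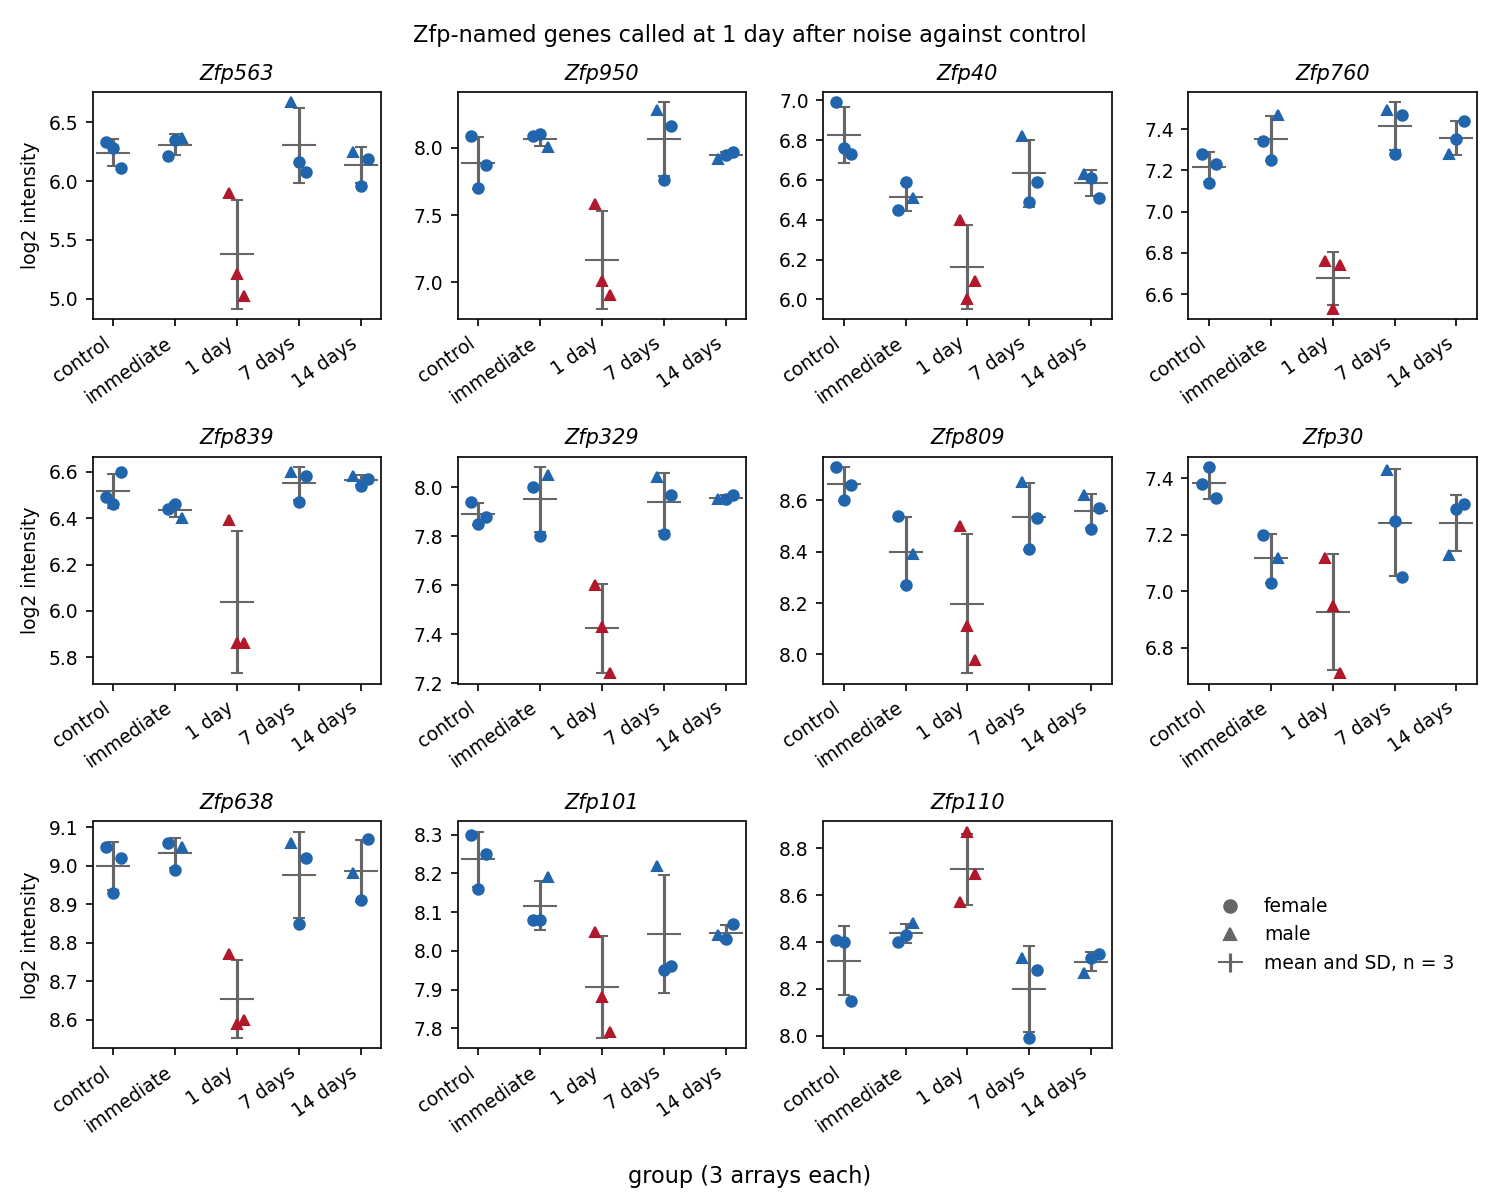
Log2 intensity (vertical axis, its range differing between panels) of the 11 Zfp-named genes called at 1 day against control, on each of 3 arrays in 5 groups (horizontal axis). Circles are females and triangles males, red marks the 1-day group, and grey bars show the mean and SD; in 10 panels the 1-day arrays lie below the controls, and Zfp110 lies above them.

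Among the genes that fell are 2 with a known part in silencing retroviral DNA. Zfp809, which binds the primer binding site of murine leukaemia proviruses, read 8.73, 8.60 and 8.66 in controls and 8.50, 8.11 and 7.98 at 1 day. The 1-day arrays lay below the controls, but replicate 1 stood within the range of the 9 other noise arrays, 8.27 to 8.67. Its difference was -0.47 ± 0.11 (limma, adjusted p = 0.0382; 0.105 with sex as a term). Zfp638, a nuclear protein that silences unintegrated retroviral DNA, read 9.05, 8.93 and 9.02 in controls and 8.77, 8.59 and 8.60 at 1 day. All other noise arrays lay between 8.85 and 9.07, so the 3 arrays of 1 day were below every other array. It fell by 0.35 ± 0.07 (limma, adjusted p = 0.0169; 0.0753 with sex as a term). Of its other probe sets, one with a mean level of 8.78 differed by -0.20, one at 5.34 by -0.21 and one at 3.98, below the levels tested, by 0.43. The mean over the 4 probe sets, the dimmest included, gave -0.08 (adjusted p = 0.668).

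Zfp40 and Zfp760 were the 2 of the 11 genes called in every fit with 1 array left out and with sex as a term. Zfp760 read 7.28, 7.14 and 7.23 in controls and 6.76, 6.53 and 6.74 at 1 day, and between 7.25 and 7.49 on the 9 other noise arrays. The 1-day arrays were below every other array. It fell by 0.54 ± 0.09 (limma, adjusted p = 0.00596; difference -0.60 and adjusted p = 0.0455 with sex as a term). Zfp40 read 6.99, 6.76 and 6.73 in controls and 6.40, 6.0 and 6.09 at 1 day. Its immediate arrays, at 6.45 to 6.59, also lay below the controls, but that difference of -0.31 ± 0.11 was not called (limma, adjusted p = 0.21). At 1 day Zfp40 fell by 0.66 ± 0.11 (limma, adjusted p = 0.00773; difference -0.78 and adjusted p = 0.0412 with sex as a term). The 3 other probe sets of Zfp40, at mean levels of 6.46, 5.61 and 3.90, differed by -0.76, -0.44 and -0.82. The dimmest of them lies below the levels tested. The mean over its probe sets, the dimmest included, gave -0.67 (limma, adjusted p = 0.0527). The 1-day arrays of Zfp40 lay within the range of 5.13 to 6.48 that the Xist probe set showed in males.

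The largest measured differences were those of Zfp563 and Zfp950. Zfp563 read 6.33, 6.28 and 6.11 in controls and 5.90, 5.21 and 5.02 at 1 day, and Zfp950 read 8.09, 7.70 and 7.87 in controls and 7.58, 7.01 and 6.91 at 1 day. In both genes 1-day replicate 1 stood closest to the controls and still below all of them. Zfp563 fell by 0.86 ± 0.19 (limma, adjusted p = 0.0268; difference -1.13 and adjusted p = 0.0516 with sex as a term). Zfp950 fell by 0.72 ± 0.16 (limma, adjusted p = 0.0243; 0.11 with sex as a term). Of the other probe sets of Zfp950, one at a mean level of 6.14 differed by 0.01 and one at 3.49, below the levels tested, by -0.24. As the mean over its probe sets Zfp950 differed by -0.32 (limma, adjusted p = 0.0879). All 3 controls and all 3 arrays of 1 day of Zfp563 lie within or below the range of 5.13 to 6.48 that the Xist probe set showed in males, so the size of its fall rests on a signal near background.

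Of the other genes that fell, Zfp329 read 7.94, 7.85 and 7.88 in controls and 7.60, 7.43 and 7.24 at 1 day, a fall of 0.47 ± 0.09 (limma, adjusted p = 0.0154; 0.0558 with sex as a term). The mean over its probe sets, one of them at a level of 3.56, differed by -0.27 (adjusted p = 0.0484). Zfp839 read 6.49, 6.46 and 6.60 in controls and 6.39, 5.86 and 5.86 at 1 day, a fall of 0.48 ± 0.12 (limma, adjusted p = 0.0394; 0.161 with sex as a term). Here 1-day replicate 1 was just below the lowest control, and replicates 2 and 3 were lower. All 3 of these arrays lay within the range of 5.13 to 6.48 that the Xist probe set showed in males. Zfp30 read 7.38, 7.44 and 7.33 in controls and 7.12, 6.95 and 6.71 at 1 day, a fall of 0.46 ± 0.11 (limma, adjusted p = 0.0385; 0.138 with sex as a term). Its mean over probe sets differed by -0.24 (adjusted p = 0.361). Zfp101 read 8.30, 8.16 and 8.25 in controls and 8.05, 7.88 and 7.79 at 1 day, a fall of 0.33 ± 0.08 (limma, adjusted p = 0.0452; 0.0694 with sex as a term, 0.0764 as the mean over probe sets). For Zfp30 and Zfp101 the 1-day arrays lay below the controls but overlapped with arrays of other noise groups.

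Zfp110, also known as NRIF, encodes a protein that binds the p75 neurotrophin receptor and carries its signal to the nucleus. It read 8.41, 8.40 and 8.15 in controls and 8.57, 8.87 and 8.69 at 1 day, and between 7.99 and 8.48 on the 9 other noise arrays. The 3 arrays of 1 day were above every other array. The rise was 0.39 ± 0.10 (limma, adjusted p = 0.0441), and with sex as a term the difference was 0.33 and not called (adjusted p = 0.26). Of its 2 other probe sets, one at a mean level of 8.12 differed by 0.47 and one at 7.59 by 0.13. From the immediate time to 1 day these 2 differed by 0.27 and -0.08, so they did not move alike. The mean over its probe sets was not called at 1 day against control (limma, adjusted p = 0.0827).

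The count of 11 calls depended on single arrays. It dropped to 2 when control replicate 1, control replicate 3, 1-day replicate 2 or 1-day replicate 3 was left out, and it was 5 without control replicate 2, 6 without immediate replicate 3 and 24 without 1-day replicate 1. Of 13644 genes tested, the first 4 of these fits called 241, 125, 112 and 186, and the others 231, 345 and 466. Zfp329, Zfp638 and Zfp950 each lost the call in those same 4 fits (adjusted p from 0.052 to 0.121), and Zfp563 also without control replicate 2 (from 0.0639 to 0.127). Zfp809 and Zfp30 lost it without any single control, 1-day replicate 2 or 3 or immediate replicate 3 (from 0.0518 to 0.158). Zfp839, Zfp110 and Zfp101 lost it without any of 11 arrays, namely each control, immediate and 14-day array and 1-day replicates 2 and 3 (from 0.0503 to 0.2). In all fits with 1 array left out the 11 differences kept their sign. With no filter on low levels the calls of Zfp839, Zfp110 and Zfp101 ended (0.0508 to 0.0566), and without a trend in the prior variance those of Zfp809, Zfp110 and Zfp101 (0.0543 to 0.0584).

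Beyond the called genes, small differences below 0 were frequent at 1 day. Of the 211 genes 154 (73%) had a difference below 0, and of all genes tested 52%. The median difference was -0.09, with -0.01 for all genes tested and -0.01 for the other genes at level 6 or more. A difference of -0.2 or lower was seen in 63 genes, or 29.9%, and in 10.9% of all genes tested. The median was -0.12 for genes at a level of 6 to 7, -0.09 at 7 to 8 and -0.05 at 8 or more, while other genes at these levels had medians of -0.02, -0.02 and 0.00. The median of the 211 genes was -0.18 with sex as a term. The 232 further probe sets of these genes, which the choice of 1 probe set per gene had left out, had a median of -0.07, with 151 below 0. Of 59 further Zfp-named genes that were tested and had a mean below 6, 8 fell and 0 rose, with a median of -0.26, and none of the 8 was called with sex as a term.

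**Figure D2:**
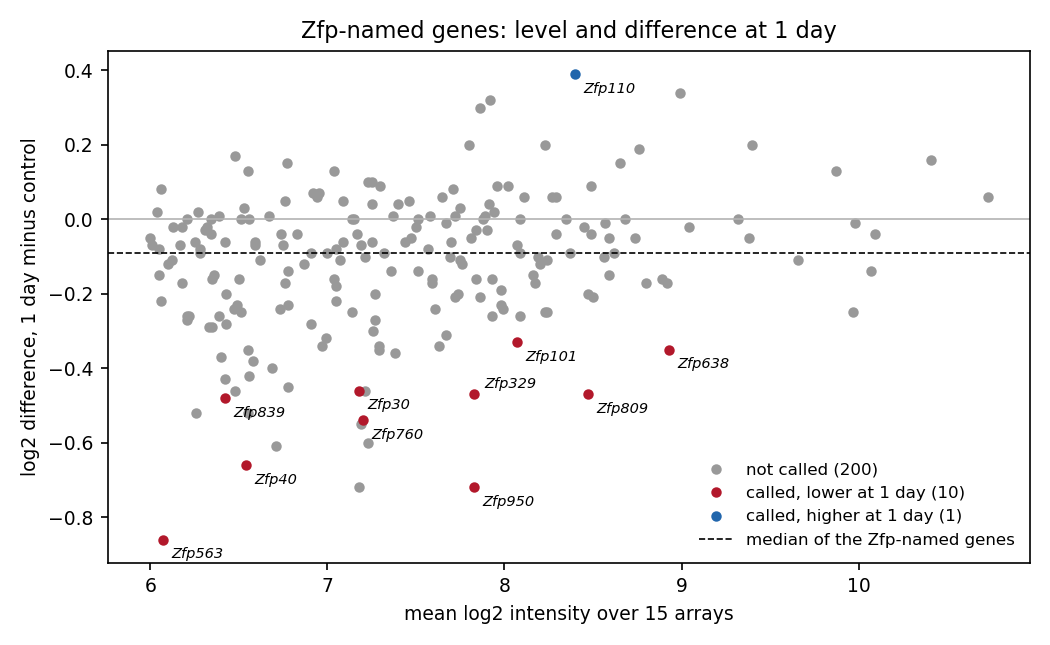
Log2 difference between 1 day and control (vertical axis) against the mean log2 intensity over 15 arrays (horizontal axis) for each of 211 Zfp-named genes. Red points are the 10 genes that fell, the blue point is Zfp110, and the dashed line is the median of -0.09; most points lie below 0, and the points farthest below 0 lie at low and middle levels.

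Array by array the shift was uneven. For each array the median over the 211 genes of the log2 value minus the gene's control mean was 0.06, -0.05 and 0.00 in the 3 controls and -0.04, -0.10 and -0.19 at 1 day. These groups overlapped: 1-day replicate 1 lay above control replicate 2. Immediately after noise the 3 arrays were at 0.02, -0.05 and -0.01, at 7 days at 0.08, -0.14 and -0.07, and at 14 days at 0.00, -0.05 and -0.02. Replicate 2 at 7 days was thus lower than 2 of the 3 arrays of 1 day. The pooled SD between replicates of this median was 0.07. For the other genes at level 6 or more the same medians stayed between -0.03 and 0.04. In the 3 noise groups that held both sexes the lone male had the highest of these medians at 7 and 14 days, but not immediately after noise. Replicate 1 had the highest median of the 211 genes in each of the 5 groups, and it was the male at 7 and 14 days. The sex term, estimated within the mixed groups, had a median of 0.07 (males minus females) over the 211 genes and 0.00 over all genes, and none of the 211 was called for it.

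**Figure D3:**
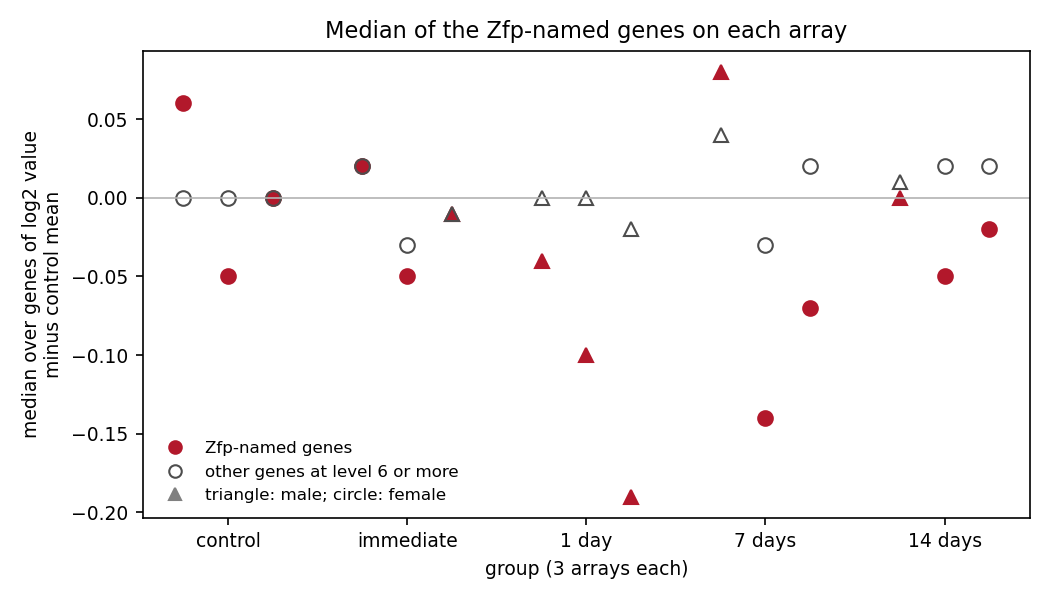
Median over genes of the log2 value minus the control mean (vertical axis) for each array, by group (horizontal axis, 3 arrays each), for 211 Zfp-named genes (filled) and 10750 other genes at a mean level of 6 or more (open). Triangles are males and circles females; the filled points spread from -0.19 to 0.08 and groups overlap, while the open points stay near 0.

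Position in the genome was a feature that the choice of genes had not used. By the gene order of the RefSeq table, 48 of the 211 lay on chromosome 7, 29 on chromosome 17, 20 on chromosome 8 and 15 on chromosome 6. There were 24 runs in which 2 to 6 of the genes followed each other with no other protein-coding gene between them, and these held 65 genes. At 1 day the median difference was -0.16 in runs and -0.07 for the other 146 genes. In 12 of the 24 runs every gene lay below 0. With 73% of the 211 genes below 0, many such runs would arise without any effect of position. Their expected number was not computed, so the count is a description only. The longest run on chromosome 7, Zfp420, Zfp27, Zfp383, Zfp74, Zfp568 and Zfp14, differed by -0.52 to -0.16 at 1 day, with 6 of 6 below 0 and none called. Zfp568 in this run represses a placental transcript of Igf2 and differed by -0.16 ± 0.17. A second run there, Zfp84, Zfp30 and Zfp790, ran from -0.61 to -0.46, and of these Zfp30 was called. Not all runs on chromosome 7 were low: Zfp553 and Zfp771 stood at 0.05 and 0.00, and Zfp688 and Zfp689 at -0.24 and 0.00. Neighbours can share sequence, so that probe sets of related genes may read each other's transcripts.

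On chromosome 6 the run Zfp398, Zfp282, Zfp212, Zfp956, Zfp777 and Zfp746 was low at another time. Its 6 genes differed by -0.36 to -0.04 immediately after noise, and none was called. Zfp956 read 6.53, 6.40 and 6.42 in controls and 6.17, 6.30 and 6.0 immediately after noise, and Zfp282 read 6.18, 6.19 and 6.17 in controls and 5.98, 5.95 and 5.87. In both genes the immediate arrays lay below all 3 controls. At 1 day the same run ranged from -0.22 to 0.02, with 3 of 6 genes below 0. The neighbours Zfp563 and Zfp763 on chromosome 17 both lay below 0 at 1 day (-0.86 and -0.27), as did Zfp760 and Zfp229 (-0.54 and -0.29), while only Zfp563 and Zfp760 were called. Other runs there were mixed: Zfp81 and Zfp101 stood at 0.07 and -0.33, and of the 5 genes Zfp51, Zfp53, Zfp52, Zfp948 and Zfp983 3 lay below 0, in a range from -0.37 to 0.15.

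**Figure D4:**
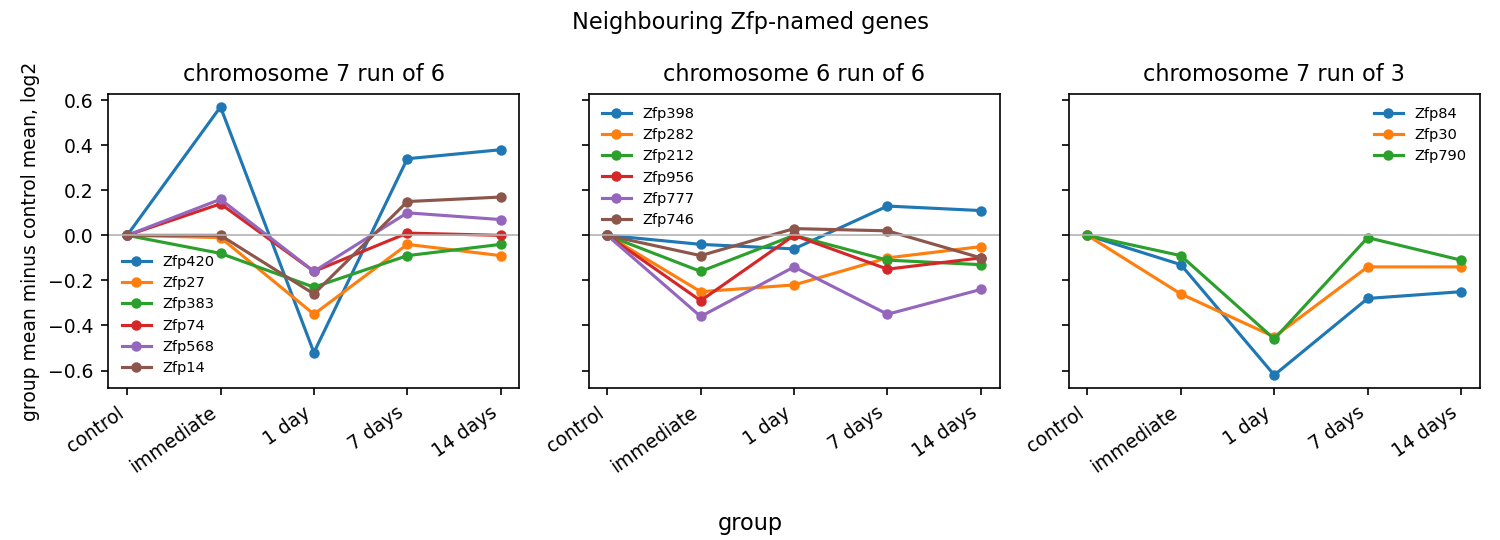
Group mean minus control mean on the log2 scale (vertical axis) over the 5 groups (horizontal axis) for 3 of the 24 runs of neighbouring Zfp-named genes, 1 line per gene. The 6 genes of the chromosome 7 run on the left and the 3 of that on the right lie below 0 at 1 day, and the 6 genes of the chromosome 6 run in the middle lie below 0 immediately after noise.

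The pair Zfp329 and Zfp110 moved in opposite directions. They follow each other on chromosome 7 on opposite strands with annotated starts 15901 bases apart, and at 1 day Zfp329 fell by 0.47 and Zfp110 rose by 0.39. Their promoters, from 250 bases before to 50 bases after the annotated start, are shown with those of Zfp760, the gene with the smallest p-value, and Zfp563, the gene with the largest difference. The sequences are those of RefSeq on GRCm38.p6, each on the gene's own strand, and capitals mark matches to the motifs named after them. Zfp329 lies at chr7:12818811-12819110 on the minus strand, Zfp110 at chr7:12834511-12834810 on the plus strand, Zfp760 at chr17:21707491-21707790 on the plus strand and Zfp563 at chr17:33089117-33089416 on the plus strand.
Zfp329: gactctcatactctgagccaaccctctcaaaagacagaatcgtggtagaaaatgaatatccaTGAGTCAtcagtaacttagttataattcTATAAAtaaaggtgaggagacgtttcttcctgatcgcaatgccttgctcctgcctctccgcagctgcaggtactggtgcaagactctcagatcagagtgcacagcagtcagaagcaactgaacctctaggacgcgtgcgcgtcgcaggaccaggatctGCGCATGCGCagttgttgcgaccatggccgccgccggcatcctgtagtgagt
Zfp110: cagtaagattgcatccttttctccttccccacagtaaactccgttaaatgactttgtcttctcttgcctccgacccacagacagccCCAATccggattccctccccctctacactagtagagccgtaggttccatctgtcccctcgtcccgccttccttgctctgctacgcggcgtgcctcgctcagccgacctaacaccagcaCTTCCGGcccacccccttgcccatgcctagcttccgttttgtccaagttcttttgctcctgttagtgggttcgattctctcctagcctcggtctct
Zfp760: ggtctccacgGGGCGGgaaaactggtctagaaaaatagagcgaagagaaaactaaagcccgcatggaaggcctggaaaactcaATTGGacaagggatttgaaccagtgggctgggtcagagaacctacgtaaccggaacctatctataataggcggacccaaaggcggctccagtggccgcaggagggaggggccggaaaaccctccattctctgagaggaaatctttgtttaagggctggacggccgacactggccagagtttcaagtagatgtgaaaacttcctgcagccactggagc
Zfp563: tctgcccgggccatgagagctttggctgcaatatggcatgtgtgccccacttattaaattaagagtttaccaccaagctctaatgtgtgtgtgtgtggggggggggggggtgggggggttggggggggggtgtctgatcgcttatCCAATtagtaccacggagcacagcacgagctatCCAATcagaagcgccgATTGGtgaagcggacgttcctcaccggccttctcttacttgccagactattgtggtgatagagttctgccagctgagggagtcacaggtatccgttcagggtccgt

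The motifs were searched on both strands. They were a GC box, spelled GGGCGG, an ETS core, spelled CCGGAAG, an NRF1 site, spelled GCGCNTGCG, and a YY1 site, spelled AANATGGCG. Further ones were a cAMP response element, spelled TGACGTCA, its shorter form TGACG, which lies within it, the CCAAT box of those letters, a TATA box, spelled TATAAA, and an AP-1 site, spelled TGANTCA. In Zfp329 an NRF1 match on each strand, overlapping at -2 and -1 from the start, stood beside a TATA match at -160 and an AP-1 match at -188. Zfp110 held an ETS match at -46 and a CCAAT match at -164. Zfp760 held a GC box at -240 and a CCAAT match at -167, and Zfp563 had 3 CCAAT matches, at -105, -72 and -56. The 4 windows thus shared no motif of this list in all of them. A match is a run of letters and does not show binding.

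Promoter windows were at hand for 169 of the 211 genes. A GC box was found in 53.8% of these and in 35.9% of the windows of all 27025 genes, an ETS core in 19.5% and 9.12%, a YY1 match in 9.47% and 2.51%, and an NRF1 match in 11.8% and 6.59%. A CCAAT match was found in 46.7% and 37.9%, TGACG in 35.5% and 21%, and the full cAMP response element in 1.78% and 1.88%. TATAAA was less frequent in these genes (7.69%) than in all (14.2%), and the AP-1 match was found in 5.33% and 7.93%. The median GC content was 56.7% in windows of the 211 genes and 52.7% in all windows, with medians of 16 and 7 CpG dinucleotides. The windows of all genes were not limited to protein-coding genes or to a level of 6 or more. Whether other genes at that level show the same shares was not tested. Of the 10 genes that fell at 1 day 9 had a window, and 6 of these held a CCAAT match, 4 TGACG, 3 a GC box, 3 an NRF1 match, 1 TATAAA, 1 an AP-1 match and none an ETS core, a YY1 match or the full cAMP response element.

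At 7 days after noise none of the 211 genes was called against control, where limma called 0.00733% of all genes as higher and 0.0147% as lower. Without adjustment 6 of the 211 (2.84%) lay higher and 10 (4.74%) lower at p under 0.05, where 5.97% and 5.21% of all genes did. The median difference was -0.04, with 0.01 for all genes. The 8 genes with the smallest p-values were Zfp131, Zfp51, Zfp777, Zfp207, Zfp219, Zfp469, Zfp24 and Zfp148. Zfp131, a POZ-domain transcription factor, read 8.90, 8.62 and 8.84 in controls and 8.60, 8.30 and 8.32 at 7 days, a difference of -0.38 ± 0.10 (limma, adjusted p = 0.252). Zfp51 read 6.76, 6.45 and 6.40 in controls and 6.36, 5.72 and 5.94 at 7 days, a difference of -0.53 ± 0.14 (adjusted p = 0.253). In both genes the 7-day arrays lay below the controls. Zfp777 differed by -0.35 ± 0.09 and Zfp469 by -0.53 ± 0.18. Without 7-day replicate 1, the male of that group, 2 genes were called: Zfp51 (-0.71, adjusted p = 0.0322) and Zfp777 (-0.46, adjusted p = 0.0465), and the median of the 211 genes was -0.11. That fit called 50 of 13644 genes tested.

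Zfp24, which is required for myelination in the central nervous system, stood at 9.90 ± 0.09 (SD, n = 3) in controls, the lowest being 9.84, and read 9.80, 9.71 and 9.56 at 7 days. The 2 groups did not overlap, and the difference of -0.21 ± 0.07 was not called (limma, adjusted p = 0.348). Other probe sets of Zfp24, from the brightest to the dimmest, differed by -0.14, 0.03, -0.07, -0.08 and 0.22. Zfp148, a Krüppel-type transcription factor, differed by -0.18 ± 0.07 (adjusted p = 0.353). Zfp207 and Zfp219, a partner of Sox9 in cartilage formation, lay on the other side at 0.32 ± 0.10 and 0.21 ± 0.07, and the mean over probe sets gave -0.04 for Zfp207. At 14 days none of the 211 was called, and limma called 0% of all genes in either direction. There 5 genes (2.37%) lay higher and 6 (2.84%) lower at an unadjusted p under 0.05, where 5.01% and 2.84% of all genes did, and the median was -0.04, with 0.02 for all genes. The smallest p-values were those of Zfp236 (0.28 ± 0.09), Zfp207 (0.29 ± 0.10, or -0.03 as the mean over probe sets), Zfp131 (-0.26 ± 0.10), Zfp777 (-0.24 ± 0.09), Zfp81 (-0.28 ± 0.12), Zfp608 (0.28 ± 0.12), Zfp101 (-0.19 ± 0.08) and Zfp469 (-0.40 ± 0.18), with adjusted p from 0.528 to 0.61.

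Between consecutive times, 17 of the 211 genes fell and 4 rose from the immediate time to 1 day, 8.06% and 1.9%, where 4.38% of all genes fell and 4.02% rose. The fit with sex as a term called 15 lower and 1 higher, beside 2.92% and 1.86% of all genes, and 14 of these 16 were among the 21. From 1 day to 7 days 21 genes rose and 7 fell, 9.95% and 3.32%, where 5.13% of all genes rose and 4.22% fell. The same fit called 9 higher and 1 lower, beside 1.99% and 1.3% of all genes, and 9 of these 10 were among the 28. From 7 to 14 days none was called, and limma called 0% of all genes in either direction, with 3 of the 211 (1.42%) higher and 0 lower at an unadjusted p under 0.05, where 1.4% and 0.696% of all genes were. These comparisons share the 1-day arrays with each other and with the comparison against control, so that a gene low on those arrays counts in each.

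Zfp420, Zfp719, Zfp647 and Zfp983 were low at 1 day against the immediate time without being called against control. Zfp420 read 7.17, 6.70 and 7.03 immediately after noise, 5.68, 6.09 and 5.87 at 1 day and 7.08, 6.18 and 6.96 at 7 days. The 1-day arrays lay within the range of 5.13 to 6.48 that the Xist probe set showed in males. They lay below both other groups, and the controls, at 6.76, 6.07 and 6.38, overlapped with them. It fell by 1.09 ± 0.24 from the immediate time (limma, adjusted p = 0.0143) and rose by 0.86 ± 0.24 to 7 days (adjusted p = 0.036; 0.0914 with sex as a term, 0.0521 with array weights). Its other probe set, at a level of 6.22, differed by -0.20 and 0.15 over these steps, and the mean of both gave -0.64 and 0.50 (adjusted p = 0.00482 and 0.0139). The fall was not called without immediate replicate 1 (adjusted p = 0.0532) or 3 (0.0591), and the rise not without any single 1-day array or 7-day replicate 1 or 3 (0.0669 to 0.112). Zfp719 fell by 0.88 ± 0.23 (limma, adjusted p = 0.0333), a call lost without any single immediate array or 1-day replicate 2 or 3 (0.0723 to 0.132). Zfp647 fell by 0.61 ± 0.18 (adjusted p = 0.0463), lost without any of 9 arrays (0.0527 to 0.182), and Zfp983 by 0.60 ± 0.14 (adjusted p = 0.0194), lost without immediate replicate 1 or 3 or any single 1-day array (0.0523 to 0.0918).

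Several genes that were low at 1 day rose from there to 7 days. Zfp563 rose by 0.93 ± 0.19 (limma, adjusted p = 0.0102), Zfp950 by 0.90 ± 0.16 (0.00433), Zfp760 by 0.74 ± 0.09 (0.000744) and Zfp329 by 0.52 ± 0.09 (0.00475). As the mean over probe sets the rise of Zfp950 was 0.44 (0.0122). Their 7-day means of 6.30 ± 0.32, 8.07 ± 0.27, 7.41 ± 0.12 and 7.94 ± 0.12 (SD, n = 3) lay at or above the control means of 6.24, 7.89, 7.22 and 7.89, and none was called against control. The rise of Zfp563 was not called without 1-day replicate 2 (0.84, adjusted p = 0.0528), nor was its fall of 0.93 from the immediate time (-0.85, 0.0501). Zfp866 rose by 0.65 ± 0.16 from 1 day to 7 days (limma, adjusted p = 0.0223), lost without 1-day replicate 2 or 3 or 7-day replicate 1 (0.0672 to 0.0808). Zfp712 rose by 0.53 ± 0.15 (adjusted p = 0.0383; 0.0941 with sex as a term, 0.0596 with array weights) and Zfp647 by 0.60 ± 0.18 (adjusted p = 0.0485), and both calls ended without any of several arrays, 5 for Zfp712 (0.0503 to 0.172) and 11 for Zfp647 (0.0521 to 0.206). The rise of Zfp647 also missed the threshold with no filter, as the mean over probe sets, after quantile normalization, without the trend and with array weights (0.0526 to 0.0618), and its fall with no filter (0.0557) and without the trend (0.0592).

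Other genes fell from 1 day to 7 days or rose from the immediate time to 1 day, and of those below only Zfp560 and Zfp330 were called in both steps. Zfp326, a subunit of the DBIRD complex that couples RNA polymerase II elongation with splicing, read 9.10, 9.38 and 9.15 at 1 day and 8.85, 8.57 and 8.83 at 7 days, and fell by 0.46 ± 0.09 between them (limma, adjusted p = 0.00835; 0.0524 with sex as a term). Its difference from control at 1 day, 0.34 ± 0.09, was not called (adjusted p = 0.0606). Zfp24 read 10.02, 10.04 and 10.02 at 1 day and 9.80, 9.71 and 9.56 at 7 days, a fall of 0.34 ± 0.07 with no overlap (adjusted p = 0.014; 0.0818 with sex as a term, and 0.0563 without 1-day replicate 2). Its other probe sets, at mean levels of 8.86, 7.89, 7.39, 6.56 and 6.23, differed by -0.30, 0.00, 0.16, -0.21 and 0.19, so they did not move alike. Zfp560 rose from 7.61 ± 0.13 (SD, n = 3) immediately after noise to 8.08 ± 0.06 at 1 day and fell to 7.64 ± 0.17 at 7 days, by 0.47 ± 0.10 and 0.45 ± 0.10 (adjusted p = 0.015 and 0.0173; 0.0711 and 0.0984 with sex as a term). These calls ended without immediate replicate 3 or 1-day replicate 2 (0.0504 to 0.0763) and without 1-day replicate 1 or 2 or 7-day replicate 3 (0.0501 to 0.0611). The other probe set of Zfp560, at a mean level of 4.67, below the levels tested, moved the other way, by -0.61 and 0.68 over these steps. Zfp330, a nucleolar protein, rose by 0.23 ± 0.06 and fell by 0.31 ± 0.06 over the same steps (adjusted p = 0.0389 and 0.0109; 0.163 and 0.0712 with sex as a term), and its rise was lost without any of 8 arrays (0.0514 to 0.115), each immediate and 1-day array among them. Zfp788 fell by 0.55 ± 0.15 from 1 day to 7 days (adjusted p = 0.0351), a call lost with sex as a term (-0.37, 0.195), as the mean over probe sets (-0.13, 0.469) and without any single 1-day array or 7-day replicate 2 or 3 (0.0629 to 0.12). Zfp740 and Zfp90, low immediately after noise, rose by 0.35 ± 0.06 and 0.32 ± 0.09 to 1 day (adjusted p = 0.00553 and 0.0331), the latter lost with sex as a term (0.14) and without immediate replicate 2 or 3 or any single 1-day array (0.0705 to 0.114). Zfp110 fell by 0.51 ± 0.10 from 1 day to 7 days (adjusted p = 0.00694).

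A moderated F test for any difference among the 5 groups called 16 of the 211 genes, 7.58%, and 6.75% of all genes. It called 5 of the 211 with sex as a term, beside 3.19% of all genes. The smallest p-values belonged to Zfp760 (limma, adjusted p = 0.0015), Zfp329 (0.00884), Zfp740 (0.0108), Zfp950 (0.0109), Zfp638 (0.0168), Zfp40 (0.0219), Zfp563 (0.0254), Zfp326 (0.0287), Zfp110 (0.0301) and Zfp839 (0.039). In 7 of these 10 genes the lowest group mean was that at 1 day, and in Zfp326 and Zfp110 the highest. The 10 were picked by this same test, and how often 1 day was lowest among all genes it called was not counted. The count was 2 without 1-day replicate 2 or 3, 5 without immediate replicate 3, 9 without control replicate 3, 10 without immediate replicate 2 or 14-day replicate 2 and 28 without 7-day replicate 1. In that order, these fits called 307, 408, 478, 694, 625, 687 and 1275 of 13644 genes tested.

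Several genes with well-known roles were not called in any comparison. Zfp36, or tristetraprolin, which binds AU-rich elements and hastens mRNA decay, read 7.55, 7.62 and 7.79 in controls, 7.70, 7.91 and 8.82 immediately after noise and 7.36, 8.17 and 8.34 at 1 day. The noise groups overlapped with the controls and scattered far more, with SDs of 0.60 and 0.52 against 0.12. Its differences were 0.49 ± 0.35 (limma, adjusted p = 0.545) and 0.30 ± 0.35 (0.711), and with sex as a term the latter turned to -0.24. Zfp423 and Zfp521, related transcription factors of neural and adipocyte development, differed at 1 day by 0.09 ± 0.13 (-0.04 with sex as a term) and -0.25 ± 0.10. Zfp536, which represses neuronal differentiation genes, differed by 0.08 ± 0.09, Zfp281, a regulator of pluripotency, by 0.19 ± 0.09, and the corepressors Zfp217 and Zfp703 by -0.11 ± 0.13 and 0.09 ± 0.08. Zfp365 and Zfp367 stood at 0.01 ± 0.19 and 0.03 ± 0.11 (-0.32 and -0.08 with sex as a term), and Zfp932, which silences endogenous retroviruses, at -0.15 ± 0.09. Zfp57, a keeper of imprints, and Zfp189 were below the level of 6, at 5.34 and 5.53.

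Genes that work with these proteins were read from lists. Of 25 genes of the KRAB corepressor machinery 24 were tested, and none was called against control at any time. Trim28, the corepressor itself, differed by -0.05 ± 0.06 at 1 day, and the histone methyltransferase gene Setdb1 by -0.16 ± 0.09. Its partner Atf7ip differed by -0.38 ± 0.10 at 1 day (limma, adjusted p = 0.0592), fell by 0.54 ± 0.10 between the immediate time and 1 day (adjusted p = 0.0072) and rose by 0.41 ± 0.10 to 7 days (0.0223). The heterochromatin protein gene Cbx5 (0.27 ± 0.06, adjusted p = 0.0115) and the DNA methyltransferase gene Dnmt3a (0.35 ± 0.10, 0.0472) also rose from 1 day to 7 days, while Trim24 fell by 0.39 ± 0.11 (0.037). The calls of Cbx5, Dnmt3a and Trim24 ended with sex as a term (adjusted p = 0.0557, 0.163 and 0.209). The rise of Atf7ip was lost without 1-day replicate 1 or 2 or 7-day replicate 3 (0.0576 to 0.0667), that of Dnmt3a without any of 10 arrays (0.0546 to 0.131) and the fall of Trim24 without any single 1-day array or 7-day replicate 2 or 3 (0.0525 to 0.135). The median of the list at 1 day was -0.04, beside -0.01 for all genes.

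Of 20 genes that act with Zfp36 in mRNA decay 19 were tested. Immediately after noise its paralogue Zfp36l1 rose by 0.61 ± 0.13 (limma, adjusted p = 0.0334) and Btg2, an activator of deadenylation, by 1.17 ± 0.25 (0.0373), neither called with sex as a term (0.0604 and 0.0685). Leaving out single arrays ended these calls, 6 arrays for Zfp36l1 (0.0504 to 0.169) and 9 for Btg2 (0.0506 to 0.196), each control and immediate replicates 1 and 3 in both. From then to 1 day Btg2 fell by 0.95 ± 0.25 and the related Tob1 by 0.41 ± 0.10 (adjusted p = 0.0313 and 0.0282), and Zc3h12c rose by 0.49 ± 0.14 (0.0463; 0.149 with sex as a term). From 1 day to 7 days the decapping enzyme gene Dcp2 rose by 0.28 ± 0.08 (0.0476; 0.0917 with sex as a term). None of the list was called at 1 day against control, where Cnot4 (-0.28 ± 0.07) and Dcp2 (-0.32 ± 0.08) came closest, both at an adjusted p of 0.0504. Between 1 day and its neighbours in time the calls were lost without any of 5 arrays for Btg2 (0.0507 to 0.14), 6 for Tob1 (0.0559 to 0.0868), 12 for Zc3h12c (0.0508 to 0.182) and 11 for Dcp2 (0.0536 to 0.148).

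Other zinc finger families, grouped by symbol, gave 0 calls against control at 1 day in limma. Of all genes 7.7% lay higher and 10.2% lower there at an unadjusted p under 0.05. Unadjusted p under 0.05 was reached by 2 higher and 3 lower of 38 Zbtb genes, 0 and 5 of 9 Zkscan genes, 0 and 1 of 7 Zscan genes, 3 and 2 of 16 Zc3h genes and 2 and 0 of 15 Klf genes. Their median differences were -0.06, -0.24, -0.10, 0.01 and 0.10. From 1 day to 7 days 4 of 9 Zkscan genes rose and none fell, where 5.13% of all genes rose, and the fit with sex as a term called 1 of 9 higher. Their median was 0.20 (0.14 with sex as a term), beside 0.08 for the 211 Zfp-named genes and 0.02 for all genes.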

How the data were processed

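RNA from the auditory nerve was labelled from 50 ng of total RNA per animal with the 3' IVT Express kit, per the labels' protocols. The authors deposited log2 values per probe set, from 2.06 to 14.63, with none missing. Affymetrix Expression Console, RMA and MAS5 are named without versions, per the submitters' processing notes; the sources used here do not say which of them gave the values. No further normalization was applied.

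Of 45101 probe sets 34945 carried 1 gene symbol in the platform annotation, 932 several, 9160 none, and 64 were controls. The probe set with the highest mean stood for a gene. Genes in the lowest 25% of mean level (4.70 or below) were left out, and 13644 were tested, among them all 211 genes described. A group-means model of the 15 arrays was fitted in R 4.3.3 by limma 3.58.1 (eBayes with trend, 10 residual degrees of freedom), with two-sided tests and Benjamini-Hochberg adjustment over all genes tested in each of 7 contrasts. Adjusted p under 0.05 counted as a call. The functions were tested on simulated data. The number of arrays, 3 per group, limits the precision.

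The members and the gene lists were chosen with earlier results of these data known. Named were called genes by size (up to 25 against control, 8 between consecutive times), the 8 smallest p-values where fewer were called, the 10 smallest of the F test, the 10 highest levels, the 3 genes on each side of the level of 6, a fixed set of genes with known roles, and called or leading genes of the related lists. Of that fixed set Zfp191, Zfp488, Zfp238, Zfp706 and Zfp260 had no probe set of their own under these symbols. Other genes were named after their values were seen. All 211 symbols matched the RefSeq table of GRCm38.p6. Promoters were taken from RefSeq, the first window listed per gene, with Python 3.11.15 and pandas 2.3.3. Figures were drawn with matplotlib 3.10.9. Protein features were not analysed here.

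Alternatives were sex as a term, female arrays only, the replicate number as a block, no filter, a filter of genes up to the median level, the mean over probe sets, quantile normalization, no trend, array weights, and each array left out.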

Additional observations from a re-analysis of the deposited data

How the results depend on the processing

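Of 361 recomputed counts and medians 307 stayed within 1.5 times, or within the spread between replicates of the median, 0.07. With sex as a term the calls at 1 day went from 11 to 2 and the median from -0.09 to -0.18, the calls from 1 day to 7 days from 28 to 10 and those of the F test from 16 to 5. Female arrays alone gave 0 calls immediately after noise and in the F test, where 8 and 3 of 13644 genes were called, and a 7-day median of -0.11. Deviations of the 30 same-numbered pairs of arrays correlated from -0.33 to 0.30, with a median of 0.06. Those of 60 other pairs correlated from -0.49 to 0.37, with a median of -0.03. These ranges overlap and cannot decide whether arrays of the same number share an effect. With the number as a block the calls were 19 at 1 day, 10 of them among the 11, and 28 in the F test. This fit called 567 and 1138 of 13644 genes there, and Zfp110 was not called at 1 day (limma, adjusted p = 0.0546). The mean over probe sets gave 5 calls at 1 day, beside 342 of 13644 genes. Array weights gave 6 calls immediately, 27 at 1 day, 41 from the immediate time to 1 day, 16 from 1 day to 7 days and 36 in the F test. In that order they called 757, 1106, 1898, 710 and 1798 of 13644 genes tested. Male arrays alone were an alternative chosen after seeing the data, with 2 residual degrees of freedom. This fit held 1 array each in the immediate, 7-day and 14-day groups, so its calls are not read. The medians of the 211 genes were 0.19 from 1 day to 7 days and -0.08 from 7 to 14 days, beside 0.03 and -0.02 for all genes. Female arrays alone could give no value for contrasts with 1 day.

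With 1 array left out in turn, calls ranged from 0 to 3 immediately after noise, 2 to 24 at 1 day, 0 to 2 at 7 days, 6 to 25 from the immediate time to 1 day, 7 to 29 from 1 day to 7 days and 2 to 28 in the F test. At 14 days and from 7 to 14 days they stayed at 0. Of 13644 genes, the fits with the fewest calls called 35 and 29 immediately after noise and 382 and 442 from the immediate time to 1 day. From 1 day to 7 days the fit with 7 calls called 429. The 7-day median ranged from -0.11 to 0.02, and the 1-day median from -0.14 to -0.07.

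Of 1679 values of named genes 16 changed sign, all of differences from control that were not called. With sex as a term the 1-day difference was -0.02 for Zfp24, -0.24 for Zfp36, -0.04 for Zfp423, -0.32 for Zfp365 and -0.08 for Zfp367. The mean over probe sets gave -0.04, -0.04 and -0.03 for Zfp207 at 1, 7 and 14 days, 0.05 for Zfp106 and -0.05 for Zfp365 at 1 day. With 1 array left out the 1-day difference reached 0.02 for Zfp91 and ranged from -0.13 to 0.02 for Zfp462, -0.12 to 0.12 for Zfp365, -0.04 to 0.14 for Zfp367 and -0.19 to 0.05 for Zfp217. The cause of these changes was not tested.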
